A study of Caenorhabditis elegans with 9 samples.

Results

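The transcription factor SKN-1 and the p38 and JNK-like kinase genes around it were followed across 3 groups of wild type N2 *C. elegans*, given as control worms, worms exposed to 0.003% (w/v) sodium arsenite (low dose) and worms exposed to 0.03% (high dose). The 10 genes were taken by name: *skn-1*, *wdr-23*, *tir-1*, *nsy-1*, *sek-1*, *pmk-1*, *mek-1*, *kgb-1*, *vhp-1* and *jnk-1*. Of these, 9 had a probeset of their own among the 17118 genes tested, and *nsy-1*, the kinase gene at the top of the p38 cascade, had none and was not analysed here. Each group held 3 samples, each hybridized to its own Affymetrix *C. elegans* array. All worms were in the axenic medium CeHM, and exposure lasted 6 h at 22 °C. All groups are wild type, and the labels give no allele, transgene or further agent. The sample labels call the larvae L3, while the study's methods give L1 and its results give L4, so the stage is not settled here. Each sample is called a biological replicate, and the methods give 3 independent RNA isolations per condition, with no statement of separate cultures. The p-values here therefore cover the spread among these 3 samples a group, part of which may be technical. The comparisons ask how the RNA of this pathway differs between each dose and no arsenite, and between the doses.

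SKN-1 is the worm counterpart of mammalian Nrf factors. It turns on genes of glutathione synthesis and of the enzymes that conjugate or reduce reactive compounds, above all in the intestine, and it also specifies endoderm in the embryo. WDR-23 is a WD40 repeat protein that brings SKN-1 to a CUL-4 and DDB-1 ubiquitin ligase, by which SKN-1 is degraded. In the p38 cascade the adaptor TIR-1 acts on the kinase NSY-1, which phosphorylates SEK-1, which phosphorylates PMK-1, and PMK-1 acts on SKN-1 in oxidative stress and on ATF-7 in intestinal immunity. A parallel cascade runs through MEK-1 to the JNK-like kinase KGB-1, which protects worms against heavy metals. The phosphatase VHP-1 removes phosphate from both KGB-1 and PMK-1, and JNK-1 is the closer relative of mammalian JNK and is found mostly in neurons. Much of the control of these proteins is by phosphorylation or degradation, which arrays of RNA do not measure.

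At the high dose 8 of the 9 genes measured were up regulated and 0 were down regulated, where 1540 of all 17118 genes (9%) were up regulated and 1878 (11%) were down regulated. The remaining gene, *jnk-1*, had an unadjusted p of 0.841 in limma. Among the brighter 50% of all genes the share up regulated was 13.7%. The largest increases belonged to the 2 negative regulators, *wdr-23* (4.22 fold) and *vhp-1* (3.99 fold), and *pmk-1* and *sek-1* had the smallest of the 8, at 1.51 and 1.49 fold. At the low dose *wdr-23* was the single gene of the 9 up regulated (2.02 fold), where 1.05% of all genes tested were up regulated, and *jnk-1* passed the test in no comparison. A gene was called when limma's adjusted p was at most 0.05 and the change at least 1.2 fold, in 1 model of all 9 arrays. The 9 genes had a median log2 fold change of 0.93 at 0.03% and of 0.26 at 0.003%, beside -0.05 and -0.01 over all genes. All levels below are log2 signals of 1 probeset, and the levels of different probesets cannot be ranked against each other, so where 2 genes are set side by side within an array the comparison is of how their difference moves between groups. At each dose the comparison is with the same 3 control arrays. RNA came from whole worms, in which fewer cells of a type and less RNA per cell cannot be told apart.

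**Figure D1:**
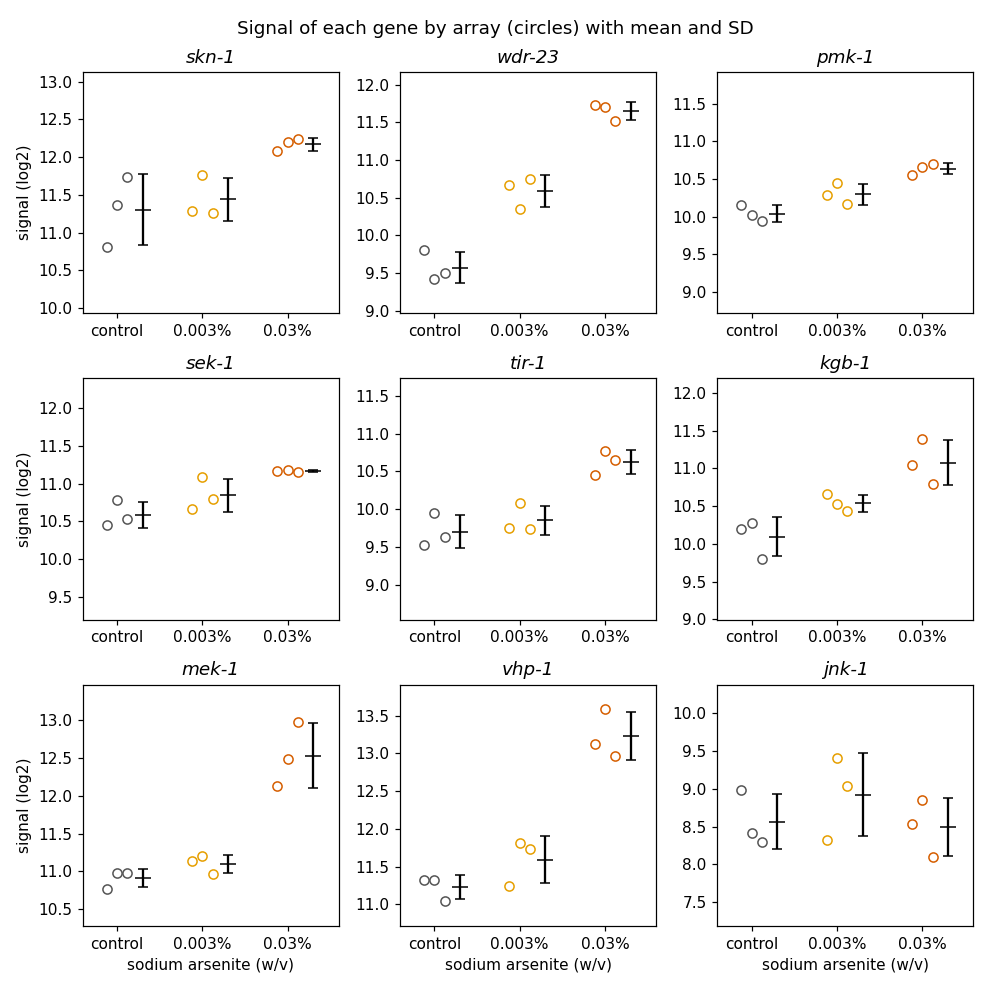
Log2 signal (vertical axes, each spanning the same 3.2 units) of the 9 measured genes in control, 0.003% and 0.03% sodium arsenite worms (horizontal axes). Circles are single arrays, 3 per group, and the bar beside them is the mean with its SD. The 3 high dose arrays lie above all control arrays in every panel except *jnk-1*.

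The RNA of *wdr-23*, the SKN-1 inhibitor, rose at both doses and by more at the higher one. Its signals (D2030.9, probeset 192424_s_at) were 9.80, 9.42 and 9.50 in control arrays, 10.68, 10.34 and 10.75 in low dose arrays and 11.73, 11.70 and 11.51 in high dose arrays. None of the 3 groups overlapped another. The group levels were 9.57 ± 0.20, 10.59 ± 0.22 and 11.65 ± 0.12 (SD, n = 3 each) in the same order. The log2 fold change was 2.08 at the high dose (SE 0.16, limma adjusted p = 0.000126) and 1.02 at the low dose (SE 0.16, limma adjusted p = 0.0253). The high dose exceeded the low dose by 1.06 on the log2 scale (SE 0.16, limma adjusted p = 0.00395). The low dose call lost its adjusted significance in limma without any 1 of control replicate 2 or 3, low dose replicate 1 or 3, or high dose replicate 1 or 2 (adjusted p = 0.0553 to 0.107), while the size of the change stayed between 0.94 and 1.14. It was also lost when control and low dose arrays were fitted alone (limma adjusted p = 0.106).

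The RNA of *skn-1* itself rose 1.83 fold at the high dose, close to the threshold. The brightest of its 3 probesets (T19E7.2, 194169_s_at) read 10.80, 11.36 and 11.74 in control arrays, 11.29, 11.76 and 11.26 at the low dose and 12.08, 12.19 and 12.25 at the high dose. The high dose arrays stood above all others and close together, while the control arrays were spread over almost 1 unit of log2. The log2 fold change was 0.87 (SE 0.25, limma adjusted p = 0.0473) at the high dose, and it was 0.14 (95% interval -0.45 to 0.72, limma adjusted p = 0.889) at the low dose. The difference of the high from the low dose, 0.73 (SE 0.25), missed the threshold (limma adjusted p = 0.0949). The high dose call was lost without any 1 array other than low dose replicate 2 or control replicate 3 (limma adjusted p = 0.0646 to 0.122). The study also lists *skn-1* among genes altered in these samples, so the call is no independent evidence of the direction. The increase it gives is larger than 1.83 fold and close to that of another probeset, 174799_at (2.11 fold here). Its methods take the probeset of highest intensity for each gene, and how its probes were summarized is not settled. The source of the difference was not tested.

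The other probesets of *skn-1* gave unequal changes. Probeset 174799_at read 10.90, 10.83 and 10.36 in control arrays, 10.79, 11.17 and 11.15 at the low dose and 11.71, 11.83 and 11.79 at the high dose. Its change at the high dose was 1.08 on the log2 scale (SE 0.18), and it passed in a limma fit of all 20766 probesets with 1 gene (adjusted p = 0.00492). Between high and low dose it also passed there, at 0.74 (SE 0.18, limma adjusted p = 0.0287). Control replicate 3 was the highest control array on 194169_s_at and the lowest on 174799_at. The third probeset, 188421_at, read 8.64 ± 0.19 at the high dose and 8.20 ± 0.29 in control worms (SD, n = 3 each), and its change of 0.44 (95% interval -0.01 to 0.89, limma adjusted p = 0.169) did not pass. RefSeq lists 4 transcripts of *skn-1*, and the files do not place these probesets on them.

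**Figure D2:**
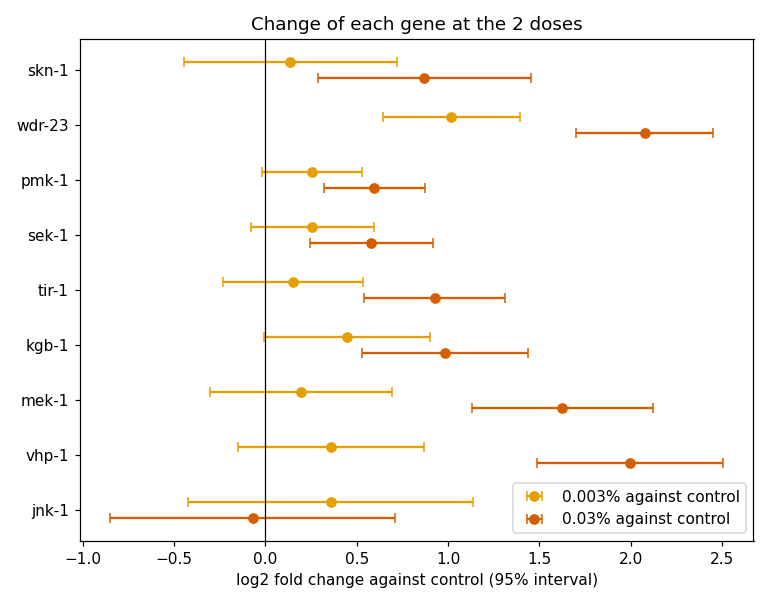
Log2 fold change against control (horizontal axis) of each measured gene at 0.003% and 0.03% sodium arsenite, with its 95% interval from limma. With 0.03% the intervals of *wdr-23* (1.70 to 2.45) and *vhp-1* (1.49 to 2.51) lie above those of *pmk-1* (0.32 to 0.87) and *sek-1* (0.24 to 0.92).

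In the p38 cascade the changes were below 2 fold, and the 3 genes measured were all called at the high dose. The signals of *tir-1* (F13B10.1, 174406_at), which encodes the worm SARM1 protein, were 9.52, 9.94 and 9.64 in control arrays, 9.75, 10.08 and 9.74 at the low dose and 10.45, 10.77 and 10.66 at the high dose. The high dose arrays overlapped neither of the other groups, which overlapped each other. Its log2 fold change was 0.93 at the high dose (SE 0.16, limma adjusted p = 0.00672) and 0.15 at the low dose (95% interval -0.23 to 0.54). The high dose exceeded the low dose by 0.77 (SE 0.16, limma adjusted p = 0.0169), a call that was lost without high dose replicate 2 or 3 or low dose replicate 1 or 3 (limma adjusted p = 0.0532 to 0.0617). The second *tir-1* probeset, 192441_s_at, changed by 0.96 at the high dose (SE 0.13, limma adjusted p = 0.00216).

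The MAP kinase kinase gene *sek-1* was the least changed of the 8 up regulated genes. On its brighter probeset (R03G5.2, 175279_s_at) it read 10.45, 10.78 and 10.53 in control arrays, 10.66, 11.08 and 10.79 at the low dose and 11.17, 11.18 and 11.16 at the high dose. The high dose arrays differed from each other by hundredths of a unit and lay above both other groups. The log2 fold change was 0.58 (SE 0.14, limma adjusted p = 0.0278) at the high dose. The low dose value was 0.26 (95% interval -0.08 to 0.59). Without any 1 high dose array, or without control replicate 1 or 3, the high dose call was lost (limma adjusted p = 0.0702 to 0.0933). The second probeset, 192392_at, had a similar log2 fold change of 0.62 with a wider spread (SE 0.23, limma adjusted p = 0.109).

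The p38 gene *pmk-1* (B0218.3, 191432_at) read 10.16, 10.03 and 9.94 in control arrays, 10.28, 10.44 and 10.16 at the low dose and 10.56, 10.66 and 10.69 at the high dose. All 3 low dose arrays lay above every control array, the closest pair being equal to the digits given, and all 3 high dose arrays above every low dose array. The log2 fold change was 0.60 at the high dose (SE 0.12, limma adjusted p = 0.0109), a call kept without any 1 array. At the low dose it was 0.26 (95% interval -0.02 to 0.53, limma adjusted p = 0.466) and did not pass.

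In the KGB-1 cascade the kinase kinase gene *mek-1* rose 3.09 fold, *kgb-1* 1.98 fold and the phosphatase gene *vhp-1* 3.99 fold at the high dose. The signals of *mek-1* (K08A8.1, 174048_at), the MAP kinase kinase gene, were 10.77, 10.98 and 10.97 in control arrays, 11.13, 11.20 and 10.97 at the low dose and 12.13, 12.48 and 12.98 at the high dose. Every high dose array stood clear of the other groups, which overlapped. The log2 fold change was 1.63 at the high dose (SE 0.21, limma adjusted p = 0.00159) and 0.19 at the low dose (95% interval -0.31 to 0.69), and the doses differed by 1.43 (SE 0.21, limma adjusted p = 0.00364). A second probeset, 191720_at, is assigned to both *mek-1* and F48E3.9 and was left out of the tests. It read 8.51 ± 0.33 at the high dose and 7.99 ± 0.26 in control worms (SD, n = 3 each), and these groups overlapped.

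The JNK-like kinase gene *kgb-1* (T07A9.3, 173843_s_at) read 10.20, 10.28 and 9.80 in control arrays, 10.66, 10.53 and 10.44 at the low dose and 11.05, 11.39 and 10.79 at the high dose. The 3 groups did not overlap. It rose 1.98 fold at the high dose (0.98 on the log2 scale, SE 0.19, limma adjusted p = 0.0109). Neither the low dose value of 0.45 (95% interval -0.01 to 0.90, limma adjusted p = 0.436) nor the difference of high from low dose, 0.54 (SE 0.19, limma adjusted p = 0.112), passed. Its probeset is marked _s_at, a mark for probesets that may also detect related transcripts, and *kgb-2* is a close relative. The probesets of *wdr-23* and the brightest ones of *skn-1* and *sek-1* carry the same mark.

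The phosphatase gene *vhp-1* (F08B1.1, 174338_at) read 11.32, 11.33 and 11.04 in control arrays, 11.24, 11.81 and 11.73 at the low dose and 13.13, 13.58 and 12.97 at the high dose. All high dose arrays stood more than 1 unit above every other array, and control and low dose arrays overlapped. The log2 fold change was 2.00 at the high dose (SE 0.22, limma adjusted p = 0.000679) and 0.36 at the low dose (95% interval -0.15 to 0.87), and high and low dose differed by 1.63 (SE 0.22, limma adjusted p = 0.00228). The second probeset, 193148_at, read 11.59 ± 0.23 at the high dose and 9.38 ± 0.14 in control worms (SD, n = 3 each), with a log2 fold change of 2.21 (SE 0.21, limma adjusted p = 0.000336).

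The neuronal kinase gene *jnk-1* (B0478.1, 175640_at) read 8.98, 8.42 and 8.30 in control arrays, 8.33, 9.41 and 9.04 at the low dose and 8.54, 8.86 and 8.09 at the high dose. The 3 groups overlapped, and no comparison passed. The high dose value was -0.07 with a 95% interval of -0.85 to 0.71, which allows changes of the size seen for *pmk-1* in either direction. On the second probeset, 190415_s_at, the high dose arrays (7.96, 8.13 and 8.10) lay below the control arrays (8.68, 8.66 and 8.24), and the change of -0.47 (SE 0.15, limma adjusted p = 0.0734) did not pass.

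**Figure D3:**
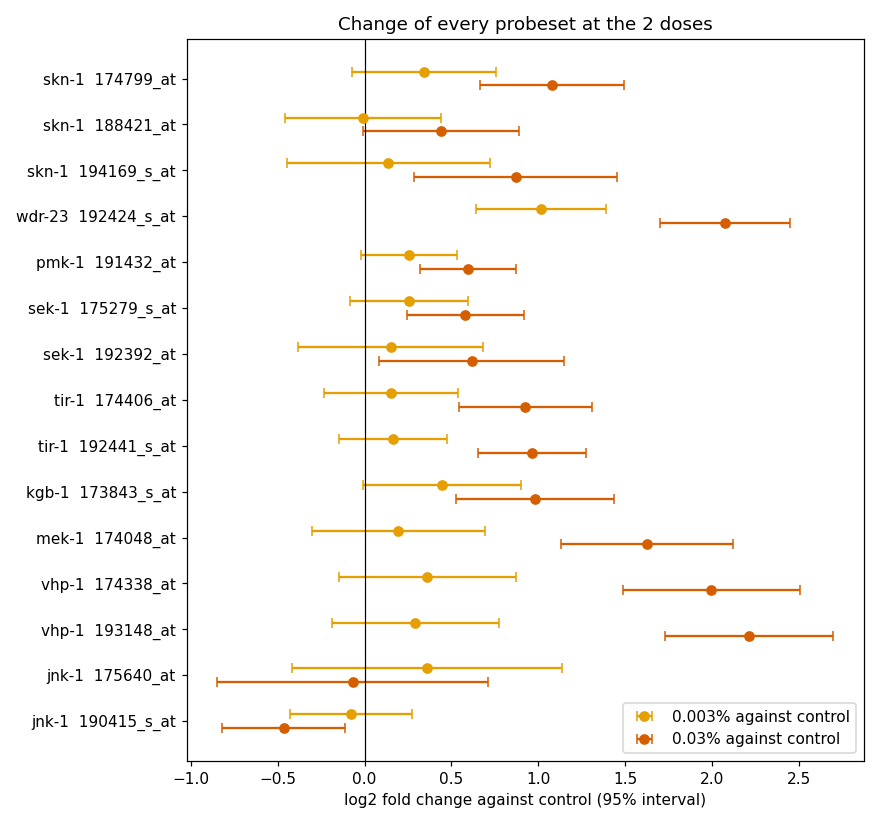
Log2 fold change against control (horizontal axis) of each of the 15 probesets assigned to 1 of the genes alone, at 0.003% and 0.03% sodium arsenite, with 95% intervals from a limma fit of every probeset. At the high dose 11 of the 15 passed the test, all of them upward, and both *jnk-1* probesets lie below 0.

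Taken probeset by probeset, 11 of 15 were up regulated at the high dose, 1 at the low dose and 7 were higher at the high than at the low dose, where 19.5%, 1.33% and 16.6% of all probesets changed in either direction. The 4 that did not pass at the high dose were 188421_at of *skn-1*, 192392_at of *sek-1* and both probesets of *jnk-1*. At gene level 4 of the 9 genes, *wdr-23*, *tir-1*, *mek-1* and *vhp-1*, were higher at the high than at the low dose, where 7.34% of all genes were. The arrays of the high dose lay wholly above those of the low dose for 8 of the 9 genes, against 15.8% of all genes, and wholly above those of control worms for 8, against 16.7%. The low dose arrays lay wholly above control for 3, *wdr-23*, *pmk-1* and *kgb-1*, against 8.62% of all genes.

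Differences between 2 genes within an array were compared for 4 pairs, chosen after their values were seen, of which 3 set a negative regulator beside a gene whose product it acts on. The signal of *wdr-23* minus that of *skn-1* was -0.52 ± 0.20 at the high dose and -1.73 ± 0.65 in control worms (SD, n = 3 each), a rise of 1.21. The signal of *vhp-1* minus that of *pmk-1* was 2.59 ± 0.32 at the high dose and 1.19 ± 0.10 in control worms, and that of *vhp-1* minus *kgb-1* was 2.15 ± 0.06 and 1.14 ± 0.10 in the same order (SD, n = 3 each). The signal of *mek-1* minus *sek-1*, both MAP kinase kinases, was 1.36 ± 0.44 at the high dose and 0.32 ± 0.12 in control worms (SD, n = 3 each). In all 4 pairs the high dose and control arrays did not overlap, and a two-sided exact permutation test of 3 against 3 arrays gave p = 0.1, the smallest it allows. In low dose worms the same differences, from *wdr-23* minus *skn-1* on, moved by 0.88, 0.11, -0.08 and -0.06, with exact permutation p of 0.2, 0.6, 1 and 0.7.

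Across the 9 arrays the 8 genes other than *jnk-1* ran together, with Pearson's r from 0.604 to 0.946 in the 28 pairs, while *jnk-1* had r from -0.343 to 0.0713 with them. These points share the arrays and the dose groups, so the values are a description. The genes whose pattern was most like that of *wdr-23* were *cld-9*, C08E8.4 and *gsto-2* (r = 0.992, 0.991 and 0.988 over 9 arrays), and for *skn-1* they were *spe-48*, C25G4.2 and F10G7.10 (r = 0.972, 0.964 and 0.963). For *pmk-1* they were *cct-6*, *pbs-4* and *nhr-184*, for *sek-1* *idpp-16*, *iscu-1* and F47D12.6, and for *tir-1* C56A3.4, C15H9.11 and *drap-1*. For *kgb-1* they were C10G8.3, *pbs-7* and Y55B1BL.1, for *mek-1* *ztf-22*, *tps-2* and C47E8.4, and for *vhp-1* *nhr-53*, *efhd-1* and Y71F9AL.10. Between 0.462% (*skn-1*) and 4.53% (*vhp-1*) of all genes had an r above 0.9 with these 8 genes.

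Beyond the 9 genes, other kinases and regulators of the same modules were up regulated in part at the high dose. Of 19 relatives in the p38 and JNK modules, 7 rose and 0 fell at the high dose, beside 9% and 11% of all genes, with a median log2 fold change of 0.39. The largest increase was that of *kgb-2*, the paralogue of *kgb-1*, at 8.65 ± 0.15 at the high dose and 6.22 ± 0.71 in control worms (SD, n = 3 each), the control level lying below 6.26, which parts the dimmest 25% of genes. Its log2 fold change was 2.43 (SE 0.32, limma adjusted p = 0.00174). The study also lists real-time PCR primers for *kgb-2*, a method with which it checked selected genes of these arrays. The direction of *kgb-2* is therefore no independent evidence. The kinase gene *dlk-1* and the receptor kinase gene *svh-2*, both acting in axon regeneration, rose 2.16 and 1.94 fold (log2 fold changes 1.11 and 0.96, SE 0.17 and 0.12, limma adjusted p = 0.00348 and 0.00147). Of the 19, 0 passed at the low dose (3 had an unadjusted p under 0.05 in limma, as had 11.7% of all genes). The low dose arrays of 4 lay wholly above control, beside 8.62% of all genes. Among these 4 was *kgb-2*, whose low dose log2 fold change was 1.47 (SE 0.32, limma adjusted p = 0.0996). Between the doses 5 were higher at the high dose, beside 7.34% of all genes. Without any 1 high dose array that count was 2, and without control replicate 2 or 3 or low dose replicate 1 or 2 it was 3.

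Of 9 listed transcription factors and cofactors that act with these kinases or in the same stress and immune responses, 4 rose and 1 fell at the high dose. Over all genes the shares were 9% and 11%. The AP-1 genes *jun-1* and *fos-1* rose 2.27 and 2.23 fold (log2 fold changes 1.19 and 1.16, SE 0.10 and 0.20, limma adjusted p = 0.000225 and 0.00625). The gene *atf-7*, which encodes the factor downstream of PMK-1 in immunity, rose 1.57 fold (limma adjusted p = 0.0209), and *zip-2*, a bZIP factor gene of immunity, rose by 0.58 on the log2 scale, while the mediator gene *mdt-15* decreased by 0.53 on the log2 scale (SE 0.13, limma adjusted p = 0.0239). None of the 9 passed in limma in low dose worms, where 2 had an unadjusted p under 0.05, beside 11.7% of all genes. The count of 5 at the high dose was 3 without high dose replicate 1 or 2 or control replicate 2 or 3. Between the doses 4 genes were higher at the high dose, beside 7.34% of all genes, and 2 were without high dose replicate 1.

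Of 24 other genes reported to regulate SKN-1, 8 rose and 1 fell at the high dose, beside 9% and 11% of all genes. At the low dose 0 passed in limma, and the 3 with an unadjusted p under 0.05 are a share close to the 11.7% of all genes. The protease gene *ddi-1*, whose product processes the SKN-1A isoform, rose 3.95 fold, to 13.21 ± 0.03 at the high dose, against 11.23 ± 0.16 in control worms (SD, n = 3 each, limma adjusted p = 3.94e-05). The autophagy gene *bec-1* rose 4.74 fold (log2 fold change 2.24, SE 0.10, limma adjusted p = 1.02e-05). The study lists real-time PCR primers for *bec-1* too, so its direction is no independent evidence. The gene *mxl-2*, which encodes a Max-like factor, rose 2.27 fold. The study names *mxl-2* as a factor predicted from these samples to take part in the arsenite response, in a list without fold changes. The gene *pgam-5*, which encodes a phosphatase of the outer mitochondrial membrane, decreased by 0.37 on the log2 scale (SE 0.10, limma adjusted p = 0.0335). The genes of the ligase that WDR-23 joins, *cul-4* and *ddb-1*, had log2 fold changes of 0.30 and 0.21 at the high dose and did not pass.

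Genes that SKN-1 is known to activate were up regulated at both doses. All 15 measured of 16 detoxification genes listed passed upward at each dose, where 9% (high) and 1.05% (low) of all genes did. Their median log2 fold changes were 2.92 (high) and 2.31 (low). Of these genes, 10 were higher at the high than at the low dose, beside 7.34% of all genes. Since 12 of the 15 are named by the study for their change in these samples, their direction is no independent evidence. The other 3 are the dehydrogenase gene *dhs-8*, the oxidoreductase gene F20D6.11 and *ptps-1*, a gene of biopterin synthesis. The list was chosen with earlier results of these data known, so these 3 are no independent evidence either. The share of the 15 that passed is a description. The level of *ptps-1* was 10.50 ± 0.13 in control, 11.86 ± 0.04 in low dose and 11.77 ± 0.07 in high dose worms (SD, n = 3 each), and the doses differed by -0.08 (SE 0.11, limma adjusted p = 0.677). The largest increases were those of the glutathione S-transferase genes *gst-30*, *gst-38* and *gst-12* (log2 fold changes 6.71, 5.12 and 4.74 at the high dose).

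**Figure D4:**
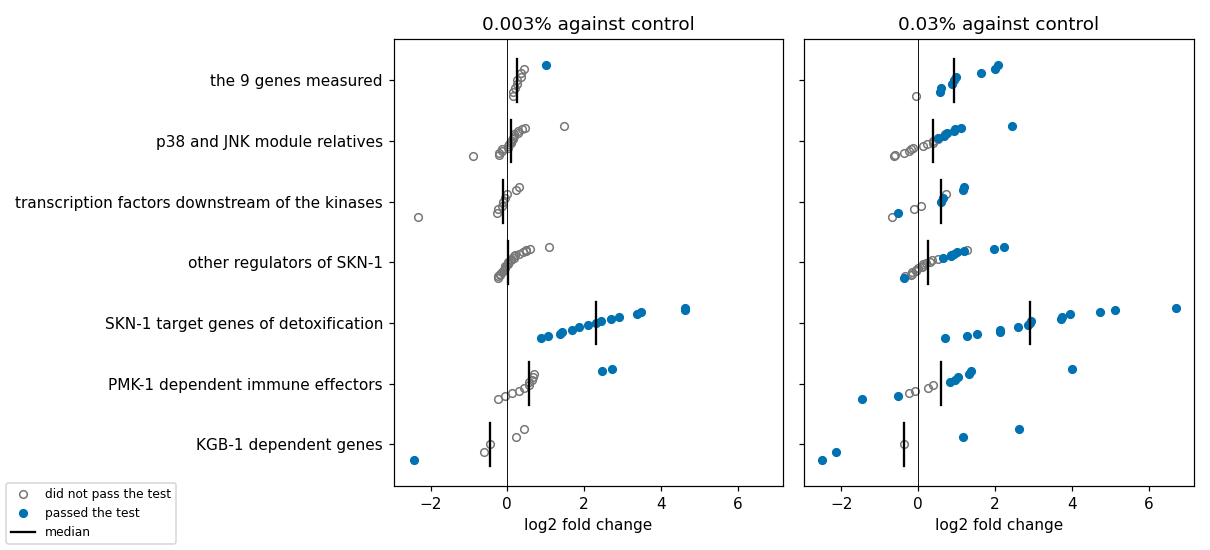
Log2 fold change (horizontal axes) of the 9 measured genes and of 6 lists of related genes at 0.003% (left) and 0.03% (right) sodium arsenite against control. Each point is a gene, filled where it passed the limma test, and the vertical bar is the median of its list. At the low dose the 15 SKN-1 target genes are all filled, while of the 9 genes *wdr-23* alone is. The lists were chosen with earlier results of these data known.

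Of 12 genes reported to depend on PMK-1 in immunity, 6 rose and 2 fell at the high dose, beside 9% and 11% of all genes, and 13.7% and 17.9% of the brighter 50%. The largest increase was that of *mul-1*, of the mucin-like kind (log2 fold change 3.99, SE 0.14), which the study also lists for its change in these samples, so its direction is no independent evidence. It was followed by *irg-5* (1.39, SE 0.21, limma adjusted p = 0.0034) and the C-type lectin gene *clec-67* (1.33, SE 0.16, limma adjusted p = 0.00121). The gene *sysm-1*, often used as a reporter of PMK-1 activity, was 8.47 ± 0.19 at the high dose and 9.94 ± 0.07 in control worms (SD, n = 3 each), a decrease of 1.47 on the log2 scale (limma adjusted p = 0.000243), and *clec-85* decreased by 0.54 (limma adjusted p = 0.0193). Both *mul-1* and *irg-6* rose at the low dose, where 1.05% of all genes did, and the other 10 did not pass. Even so, 9 of the 12 had an unadjusted p under 0.05 in limma, beside 11.7% of all genes. The low dose arrays of 9 lay wholly above control, beside 8.62%. The level of *irg-6* was 6.35 ± 0.41 in control, 8.81 ± 0.31 in low dose and 7.39 ± 0.41 in high dose worms (SD, n = 3 each), and it was lower at the high than at the low dose by limma (log2 difference -1.41, adjusted p = 0.015). Between the doses 4 genes of the list were higher and 5 lower at the high dose, where 7.34% of all genes were higher and 9.49% lower.

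Of 5 genes reported to depend on KGB-1, 2 rose and 2 fell at the high dose, beside 9% and 11% of all genes. Also listed was *numr-1*, which had no probeset of its own here and is not in these counts. The study reports *numr-1* as up regulated at both doses. The gene *kreg-1*, named for its regulation by KGB-1, was 11.65 ± 0.09 at the high dose and 9.03 ± 0.21 in control worms (SD, n = 3 each), higher by 2.61 on the log2 scale (SE 0.15, limma adjusted p = 3.16e-05). It was 9.47 ± 0.18 at the low dose, and the doses differed by 2.18 (SE 0.15, limma adjusted p = 0.000141). The other that rose is *fos-1*. The metallothionein genes *mtl-2* and *mtl-1* decreased by 2.13 and 2.50 on the log2 scale at the high dose. In addition, *mtl-1* was the 1 gene of the 5 measured that was called at the low dose, at -2.44, where 0.508% of all genes were down regulated. Real-time PCR primers for *mtl-1* are also listed by the study, so its direction is no independent evidence.

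Marker genes of 7 tissues or germ cell types were counted in the same way. Over all genes 9% rose and 11% fell at the high dose, and 1.05% and 0.508% at the low dose. Of 9 intestinal marker genes, the tissue where SKN-1 and PMK-1 act most, 1 rose and 4 fell at the high dose. Their mean log2 level ran from 12.06 to 12.11 over high dose arrays and from 12.51 to 12.57 over control arrays. The metallothionein gene *mtl-2* of the paragraph above is 1 of the 4, with a log2 fold change of -2.13. It therefore lowers this mean, and the mean without *mtl-2* was not computed. Of 10 neuronal markers 1 rose and 0 fell, with means of 9.73 to 10.15 over high dose arrays and 9.83 to 9.96 over control arrays. Body wall muscle markers fell in 3 of 9, hypodermal ones in 4 of 7 and germ line ones in 4 of 9, with 0 rising in each. Oocyte and yolk markers fell in 6 of 8 at the high dose and 4 of 8 at the low dose, with means of 10.33 to 10.73 over high dose arrays, 10.11 to 10.37 over low dose arrays and 11.37 to 11.62 over control arrays. Of 7 sperm markers, 0 were called at the high dose and 1 fell at the low dose. The part of tissue composition in the changes above was not tested.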

How the data were processed

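RNA of 9 samples was hybridized to 9 arrays, 3 per group. The deposited values are log2 signals, 1 per probeset and array, which the authors made in Partek, and they were used unchanged. RMA is named in the methods, whereas Partek 6.4 with MAS5 stands in the submitters' processing notes, so how probes were summarized is not settled. The deposited values do not return the study's fold changes for every gene. At the high dose *gst-30* rose 104.5 fold here, more than the study gives, and *gst-38* rose 34.8 fold, less than it gives. The cause was not tested. Array medians ran from 8.42 to 8.52, arrays of 1 group correlated at 0.940 to 0.952 across genes, and 41 values were below 0. The median log2 change over all genes was within 0.06 of 0 under each scaling tried.

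Of 22625 probesets, 77 controls, 895 without a gene and 887 with several genes were left out. The probeset with the highest mean stood for each gene, which left 17118 genes, 2981 of them with several probesets. Names came from the platform annotation, updated through the RefSeq table of assembly WBcel235. The 3 contrasts between the groups were tested in 1 model by limma 3.58.1 (R 4.3.3, moderated with 6 residual and 1.45 prior degrees of freedom), with Benjamini-Hochberg adjustment over all genes. Figures used matplotlib 3.10.9. Precision is limited by the number of arrays.

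The genes and the 6 lists were chosen with earlier results of these data known. All 10 genes are named, with every probeset assigned to them. From each list up to 3 called genes that rose most and up to 3 that fell most at the high dose are named, and for each of the 8 up regulated genes the 3 most correlated genes. The genes *zip-2*, *irg-6*, *cul-4*, *ddb-1*, *dhs-8*, F20D6.11 and *ptps-1* were named after their values were seen. Of the genes listed, *aip-1*, *numr-1*, *atf-5*, *tpl-1* and *gck-3* had no probeset of their own. Alternatives were an analysis of variance without moderation, no fold threshold, 1.5 fold, dim genes left out, quantile or median scaling, averaging the probesets of a gene, testing every probeset, a variance trend with robust estimation, the compared groups alone, a block for the replicate number and leaving out single arrays.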

Additional observations from a re-analysis of the deposited data

How the results depend on the processing

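The 8 genes called at the high dose numbered 7 or 8 under every alternative that kept all arrays, and 6 to 8 with 1 array left out. The 1 low dose call was lost (0 genes) when the compared groups were fitted alone and with the replicate block (limma adjusted p = 0.0727 for *wdr-23*), and numbered 0 to 1 with 1 array left out. The replicate numbers are not shown to pair the samples, since same-numbered arrays had residual correlations of -0.0252 to 0.0334 in 9 pairs. With the block 7 genes were called at the high dose, *skn-1* losing its call (limma adjusted p = 0.0577), as it did without variance moderation (0.0698) and with the compared groups alone (0.0773). The call of *skn-1* held in 8 of the 11 alternatives that kept all arrays and gave 1 value per gene. Its high against low dose difference passed in 3 of the 11. These were probesets averaged (limma adjusted p = 0.00523), trend and robust variance (0.0114) and the dimmer 50% left out (0.0142). Without control replicate 1 it passed too (0.0454), and it did not when any 1 of the other 8 arrays was left out. The 4 genes higher at the high than at the low dose were 7 with the dimmer 50% of genes left out and 3 to 5 with 1 array left out. With that filter fewer genes are tested. The value of *jnk-1* at the high dose changed sign without high dose replicate 3 (0.13) or control replicate 1 (0.14), ranging from -0.25 to 0.14, and that of *skn-1* at the low dose without low dose replicate 2 (-0.02) or control replicate 1 (-0.11), ranging from -0.11 to 0.36. At 1.5 fold *sek-1* was no longer called.

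Over all genes the low dose count of 266 was 533 with the dimmer 50% left out, 545 with trend and robust variance, 139 with the compared groups alone, 160 with the block and 170 to 223 with 1 array left out, and the cause was not tested. With the same first 2 settings the 2 PMK-1 dependent genes called at the low dose were 5 and 6, the other SKN-1 regulators called there 2 and 2 in place of 0 and the KGB-1 dependent genes 2 and 2 in place of 1. The 5 module relatives higher at the high than at the low dose were 2 at 1.5 fold and 8 with the dimmest 25% left out. The 0 module relatives called at the low dose were 1 with the dimmest 25% left out, with trend and robust variance and without control replicate 1. The 5 transcription factors called at the high dose were 3 at 1.5 fold, and the 4 between doses were 2 with the compared groups alone.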
